A study of Mus musculus with 18 samples.

Results

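*Pole4*-/- *Trp53*-/- mouse embryonic fibroblasts (MEFs) were compared with *Pole4*-/- *Trp53*+/- MEFs, so that the 2 groups, both labelled *Pole4* null, differ by label in the second *Trp53* allele. Members were chosen by genotype label, which gave 3 libraries in each group, 6 of the 18 in the series. The series crosses *Pole4* null or wild type with *Trp53* wild type, heterozygous or null, with 3 libraries for each of the 6 genotypes. Parents were *Pole4*+/- *Trp53*+/- mice of the C57BL/6 background carrying the Trp53tm1Brd and Pole4tm1(KOMP)Vlcg alleles, both constitutive. Cultures came from single mid-gestation embryos without head, heart and liver, and were grown at 5% oxygen in 15% fetal bovine serum. The labels do not say which embryo gave which library, so p-values measure the spread between these libraries. Such cultures hold whatever cells of the embryo body attach, so an RNA level is an average over a mixture.

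TRP53 is a transcription factor that cells stabilize upon DNA damage or replication stress. It raises genes that halt the cell cycle, with *Cdkn1a* (the CDK inhibitor p21) at their head, genes of apoptosis, and genes that shut TRP53 off again, such as *Mdm2*. Through p21 and the pocket proteins, active TRP53 also keeps E2F and MuvB complexes in a repressing state at the promoters of replication and mitosis genes. POLE4 is a small histone-fold subunit of DNA polymerase epsilon, the leading-strand polymerase that also belongs to the helicase assembled at origins. The comparison asks how much of the TRP53 transcriptional programme the single remaining allele still sustained in cells that lack POLE4.

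The 6 libraries held from 17106442 to 35319918 expected counts, and 15710 genes passed edgeR's filter on low counts. Levels are given as CPM, the counts scaled by TMM to a common library size. Calls rest on edgeR's quasi-likelihood test with Benjamini-Hochberg adjustment, at an adjusted p under 0.05. Each group had 1 male and 2 female libraries by *Xist* and Y-linked genes. Ribosomal RNA genes took 4.12%, 15.5% and 3.75% of the *Trp53*+/- libraries and 24.8%, 30.04% and 24.7% of the *Trp53*-/- libraries, so this share did not overlap between the groups (exact permutation test, two-sided p = 0.1, the smallest that 3 against 3 can give). Its part in the results was not tested beyond the fits without those genes and with that share as a covariate. The second *Trp53*+/- library stood apart from the other two on the first principal component of the 1000 most variable genes, at 10.7 against -10.7 and -7.81, with the *Trp53*-/- libraries at 18 to 31.7. Fibroblast markers were abundant, with a summed level of 15409 to 18961 CPM in *Trp53*+/- and 10507 to 12865 CPM in *Trp53*-/- libraries.

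The genotypes were visible in *Trp53* itself (ENSMUSG00000059552, chromosome 11, 69580359 to 69591873, plus strand, GRCm38). It stood at 53.2, 55.6 and 48.4 CPM in the *Trp53*+/- libraries and at 10.03, 12.1 and 11.9 CPM in the *Trp53*-/- libraries. The groups did not overlap, and the reads that remain in *Trp53*-/- cells show that transcript from the locus was still counted. On the log2 scale the groups differed by -2.21 (SE 0.12, adjusted p = 7.66e-09). *Pole4* (chromosome 6, 82618992 to 82705365, minus strand) was level between the groups, at 11, 11.5 and 9.84 CPM against 11.2, 12 and 11.2 CPM, so reads from this locus were counted as well. In *Pole4*+/+ *Trp53*+/- libraries it stood at 22.1, 23.1 and 18.2 CPM.

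Between *Trp53*-/- and *Trp53*+/- cells 1963 of the 15710 genes tested differed, 12.5% of them. The labels name no preparation batch, so a batch that goes with genotype, like the ribosomal share, cannot be told apart from the allele. Of these, 929 were lower in *Trp53*-/- cells (5.91% of all genes tested) and 1034 were higher (6.58%). The lowered genes changed by a median of 0.66 on the log2 scale and 62 of them by at least 2, whereas the raised genes changed by a median of 0.59 and 14 of them by at least 2. The large changes were therefore mostly losses. Libraries of the 2 groups did not overlap for 5930 genes (37.7% of all), which include 924 of those called lower and 1032 of those called higher. The split into lower and higher depends on the scaling: with library totals alone the median gene shifted by -0.33, and 1165 genes were called lower and 87 higher. The count varied with the library left out, from 654 calls without the third *Trp53*-/- library, 781 without the third and 821 without the first *Trp53*+/- library to 1803 without the second *Trp53*+/- library. With all libraries and the ribosomal share as a covariate it was 861.

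**Figure D1:**
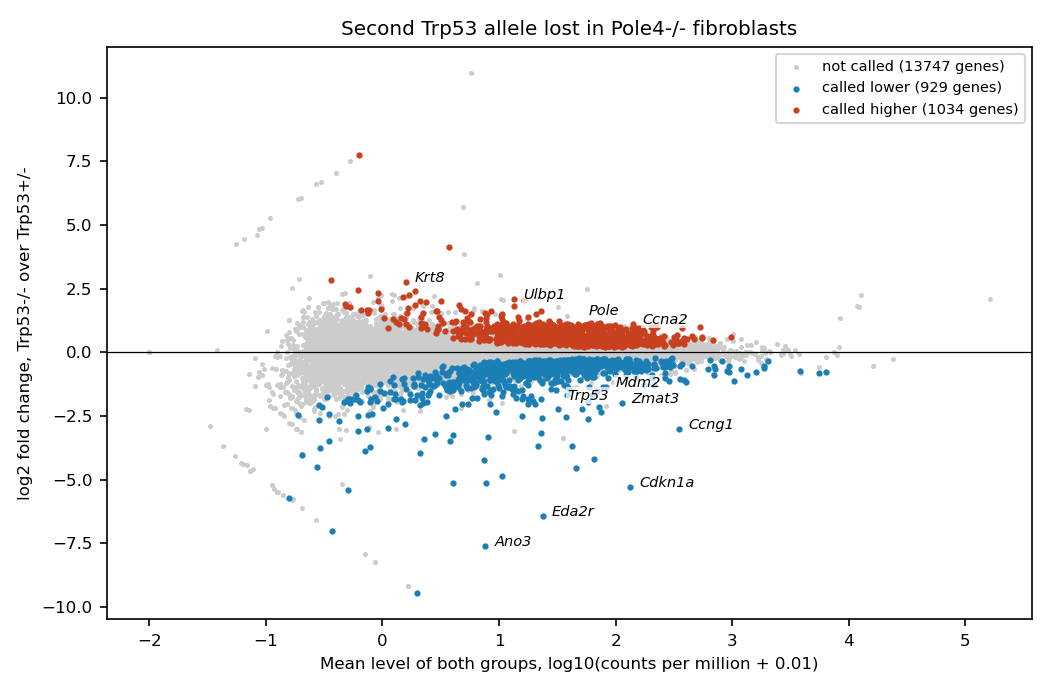
log2 fold change of *Trp53*-/- over *Trp53*+/- MEFs (vertical axis) against the mean level of both groups (horizontal axis, log10 of CPM plus 0.01), 1 point per gene tested, all in *Pole4*-/- cells. The 929 genes called lower reach far below zero (*Cdkn1a*, *Eda2r*, *Ano3*), while the 1034 called higher lie mostly in a band under 1.

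TRP53 target genes were prominent among the lowered genes. Of 59 targets tested, from lists of the feedback circuit, arrest, apoptosis, and repair with metabolism, 35 were lower (59.3%, beside 5.91% of all genes) and 1 was higher, with a median log2 fold change of -0.83 against 0.00 over all genes. Leaving out any 1 library gave from 29 to 32 lowered targets, and the fit with the ribosomal share as a covariate gave 29.

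Promoter sequence is shown for a few of these targets, chosen because they hold a match to the p53 half-site consensus, which most targets do not. RefSeq windows of 300 bases, from 250 before to 50 after a start site (GRCm38.p6), were available for 10689 genes tested, and 886 of them held a match (8.29%). Among the TRP53 targets 15 of 47 did (31.9%). All genes called lower had a share of 10.03% and those called higher of 7.005%. The consensus reads the same on both strands. Each stretch below is 60 bases long, runs 5′ to 3′ in the direction of its gene and has the match in capitals.
Cdkn1a, chr17:29090903-29090962, plus strand: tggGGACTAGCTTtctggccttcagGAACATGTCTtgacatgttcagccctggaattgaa
Ccng1, chr11:40755437-40755496, minus strand: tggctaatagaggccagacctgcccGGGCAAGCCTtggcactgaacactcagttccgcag
Mdm2, chr10:117710910-117710969, minus strand: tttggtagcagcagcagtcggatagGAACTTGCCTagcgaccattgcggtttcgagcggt
Bax, chr7:45467065-45467124, minus strand: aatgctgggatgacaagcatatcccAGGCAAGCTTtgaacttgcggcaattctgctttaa
The *Cdkn1a* stretch holds 2 matches and the others 1 each. A match describes letters in the window and is not a bound site.

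The feedback circuit had 6 of 9 tested genes lower (66.7%, beside 5.91% of all genes) and none higher (median -1.36). *Mdm2*, the ubiquitin ligase that degrades TRP53, stood at 124, 109 and 123 CPM in *Trp53*+/- and 48.1, 44.5 and 46.3 CPM in *Trp53*-/- libraries. *Ccng1*, encoding cyclin G1, which recruits a phosphatase to MDM2, fell from 631, 615 and 617 CPM to 84.0, 74.9 and 73.3 CPM. Both genes kept a basal level without TRP53, 39.04% and 12.5% of the *Trp53*+/- mean. *Mdm2* changed by -1.36 (SE 0.11, adjusted p = 1.61e-06) and *Ccng1* by -3.00 (SE 0.17, adjusted p = 2.15e-08) on the log2 scale. *Trp53inp1*, a stress-induced regulator of TRP53 and autophagy, fell from 92.5, 64.5 and 105 CPM to 4.45, 4.29 and 2.39 CPM (-4.54 on the log2 scale, SE 0.63, adjusted p = 0.000842). *Phlda3*, a repressor of AKT, fell from 88.1, 86.1 and 79.2 CPM to 21.2, 17 and 15.4 CPM (log2 fold change -2.24, SE 0.16, adjusted p = 4.93e-07). *Mdm4*, the MDM2 partner, was not called (-0.13, adjusted p = 0.54).

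Of 15 genes for arrest and growth restraint, 8 were lower (53.3%, beside 5.91% of all genes) and none was higher (median -0.74). *Cdkn1a* (ENSMUSG00000023067, chromosome 17, 29090976 to 29100727, plus strand) stood at 305, 222 and 256 CPM in *Trp53*+/- and at 8.80, 6.07 and 5.17 CPM in *Trp53*-/- libraries. The remaining level was 2.56% of the *Trp53*+/- mean, and the second *Trp53*+/- library was the lowest of its group. Its change on the log2 scale was -5.28 (SE 0.25, adjusted p = 4.97e-09), and it lay between -5.53 and -5.13 without any 1 library. *Btg2*, an antiproliferative cofactor of mRNA decay, changed by -2.52 (SE 0.34, adjusted p = 0.000485). *Sesn2*, a sensor that restrains mTORC1, changed by -1.67 (SE 0.21, adjusted p = 0.000225), whereas its relative *Sesn1* did not pass the test (-0.09, adjusted p = 0.849). *Abhd4*, an N-acyl phospholipid lipase, changed by -1.22 (SE 0.19, adjusted p = 0.00135).

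Among apoptosis targets, 12 of 14 tested genes were lower (85.7%, beside 5.91% of all genes) and none higher (median -1.18). *Eda2r*, a member of the TNF receptor family (ENSMUSG00000034457, chromosome X, 97333840 to 97377216, minus strand), stood at 52.0, 41.6 and 46.9 CPM in *Trp53*+/- and 0.590, 0.471 and 0.530 CPM in *Trp53*-/- libraries. *Zmat3*, an RNA-binding protein that regulates splicing, went from 196, 163 and 184 CPM to 42.7, 51.5 and 44.3 CPM. *Eda2r* was left at 1.13% and *Zmat3* at 25.5% of the *Trp53*+/- mean. Their log2 fold changes were -6.44 (SE 0.31, adjusted p = 4.97e-09) and -1.97 (SE 0.09, adjusted p = 4.08e-09). The BCL2-family killers had smaller fold changes than *Eda2r*: *Bbc3* (PUMA) changed by -1.63 (SE 0.19, adjusted p = 0.000113), *Bax* by -1.08 (SE 0.13, adjusted p = 0.00012) and *Pmaip1* (NOXA) by -1.35 (SE 0.38, adjusted p = 0.0313). *Tnfrsf10b*, the TRAIL receptor, changed by -1.29 (SE 0.13, adjusted p = 1.38e-05).

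Among repair, metabolism and autophagy targets 9 of 21 were lower (42.9%, beside 5.91% of all genes) and 1 was higher (4.76%, beside 6.58%), with a median of -0.38. *Dglucy*, a mitochondrial D-glutamate cyclase, fell from 23.5, 18.6 and 19.4 CPM to 0.771, 0.733 and 0.597 CPM (-4.85 on the log2 scale, SE 0.25, adjusted p = 7.66e-09). *Ephx1*, the microsomal epoxide hydrolase, changed by -3.67 (SE 0.48, adjusted p = 0.000504), *Polk*, a translesion polymerase, by -1.18 (SE 0.09, adjusted p = 1.57e-06) and *Ercc5*, the XPG endonuclease, by -1.12 (SE 0.14, adjusted p = 0.000279). The damage recognition genes *Ddb2* (-0.88, adjusted p = 0.278) and *Xpc* (-0.05, adjusted p = 0.834) were not called. The raised member was *Prkab1*, a regulatory subunit of AMPK, at 18.7, 19.5 and 16.3 CPM against 21.6, 22.2 and 27 CPM (log2 fold change 0.37, SE 0.11, adjusted p = 0.0415), and it was not called with the ribosomal share as a covariate (adjusted p = 0.144).

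Genes outside these lists fell as well. *Ano3*, which encodes a membrane protein of the anoctamin family (chromosome 2, 110655201 to 110950923, minus strand), stood at 18.1, 9.12 and 18.1 CPM in *Trp53*+/- libraries and held 1, 0 and 3 counts in the *Trp53*-/- libraries. Summed over libraries this is 1399 counts against 4, and the ratio after dividing by the summed scaled library sizes was 223, with a 95% exact interval of 87.1 to 821 that covers counting error only. *Cd80*, a costimulatory ligand of T cells, went from 10.6, 5.33 and 7.27 CPM to 0.181, 0.209 and 0.265 CPM (log2 fold change -5.15, SE 0.39, adjusted p = 8.69e-07). *Inka2*, an inhibitor of the kinase PAK4, changed by -5.14 (SE 0.40, adjusted p = 1.32e-06). *Psrc1*, a microtubule-binding protein, changed by -3.67 (SE 0.22, adjusted p = 3.59e-08), and *Slc19a2*, a thiamine transporter, by -1.93 (SE 0.14, adjusted p = 4.93e-07).

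A pair of long noncoding RNAs fell as well. *Gm42047* fell from 96.6, 126 and 151 CPM to 4.58, 8.95 and 6.90 CPM (log2 fold change -4.20, SE 0.30, adjusted p = 6.93e-07), and *Gm47761* changed by -4.22 (SE 0.35, adjusted p = 2.68e-06). *Gm42047* overlaps the gene model *Gm20388* on the same strand, so the assignment of its reads is uncertain. *Gm49325* had 0 counts in every *Trp53*-/- library and was at least 23.9-fold lower there, against a floor of 3 counts per library. It spans *Ube2g2* and *Sumo3* on the same strand and varied from 0.982 to 5.62 CPM among *Trp53*+/- libraries, so its value is uncertain as well.

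**Figure D2:**
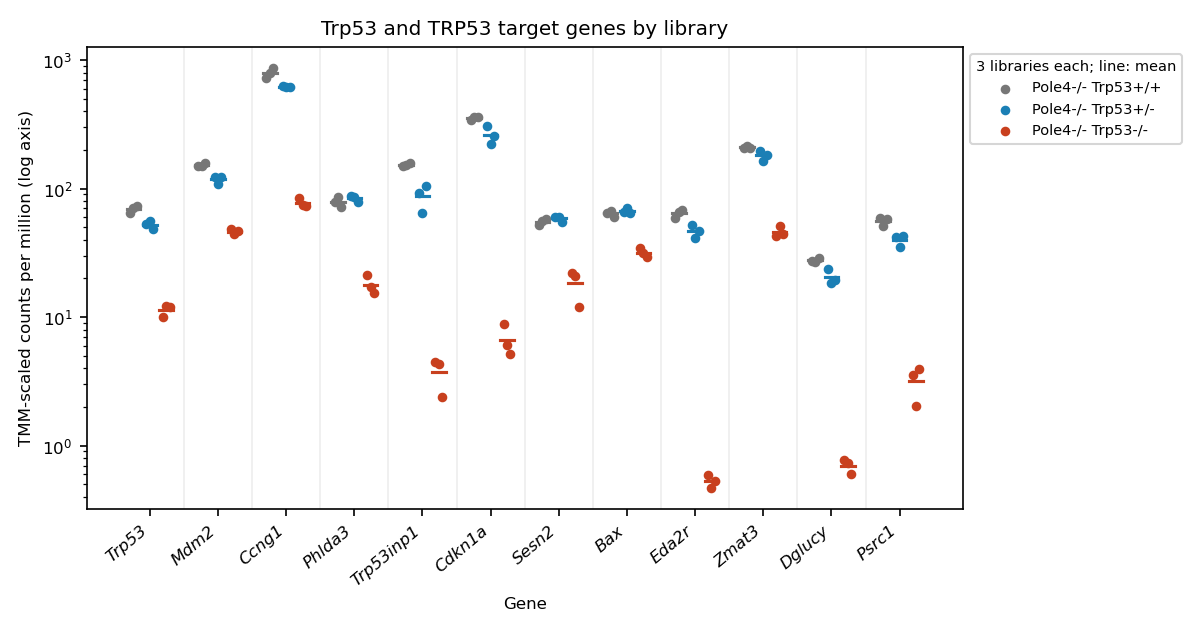
Levels of *Trp53* and 11 TRP53-regulated genes in each *Pole4*-/- library (points, TMM-scaled CPM on a log axis) by *Trp53* genotype, with lines at the means of 3 libraries. *Trp53*+/- libraries sit close to *Trp53*+/+ libraries and the *Trp53*-/- libraries far below both.

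Set beside the *Pole4*-/- *Trp53*+/+ libraries, the *Trp53*+/- cells held most of the target RNA. The *Trp53*+/- mean was 73.5% of the *Trp53*+/+ mean for *Cdkn1a*, 73.0% for *Eda2r*, 77.6% for *Mdm2*, 77.8% for *Ccng1* and 86.3% for *Zmat3*. *Phlda3* was at 107%. The *Trp53* transcript itself was at 75.8%, and *Ano3* and *Cd80* were lower, at 38.1% and 39.7%.

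The *Trp53*+/- mean was also tested against the log2 midpoint of *Trp53*+/+ and *Trp53*-/- within *Pole4*-/- cells. The *Trp53*+/- level was above the midpoint for 23 genes (0.146% of those tested) and below it for 3 (0.0191%), at an adjusted p under 0.05. Of the 23 genes above it, 8 are in the TRP53 lists. This contrast shares its *Trp53*+/- and *Trp53*-/- libraries with the main comparison, so its calls are not independent of those. It also depends on the scale, since a gene near 0 without TRP53 can lie above the log2 midpoint at a low dose: *Ano3* and *Cd80*, at 38.1% and 39.7% of the *Trp53*+/+ mean, were called above it by 3.12 and 1.91. The distance was 3.00 for *Eda2r* (SE 0.21, adjusted p = 2.82e-06), 2.42 for *Cdkn1a* (SE 0.18, adjusted p = 3.45e-06), 2.21 for *Dglucy* (SE 0.18, adjusted p = 7.06e-06), 1.32 for *Ccng1* (SE 0.13, adjusted p = 8.95e-05) and 0.88 for *Zmat3* (SE 0.07, adjusted p = 7.47e-06), all on the log2 scale. The genes below it were *Gm14295* (-0.69), *Lpl* (-1.37) and *Slc12a2* (-0.61), named after their values were seen. None was called below it without the third *Trp53*+/- or the second *Trp53*+/+ library, at an adjusted p under 0.01 or with library totals alone. *Lpl*, lipoprotein lipase, stood at 3.795, 4.58 and 3.94 CPM in *Trp53*+/- and 12.3, 8.17 and 14.8 CPM in *Trp53*-/- libraries. No gene of the replication and mitosis lists was called in this test.

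Replication and mitosis genes moved the other way. Over the lists for polymerase epsilon, origin licensing and firing, fork factors and nucleotide supply, 50 of 64 tested genes were higher in *Trp53*-/- cells (78.1%, beside 6.58% of all genes) and 1 was lower, with a median of 0.74. In the mitosis list all 36 tested genes were higher, between 0.68 and 1.16 on the log2 scale (median 0.94). In RNA from whole cultures, more cells in S phase or mitosis and more RNA per cell cannot be told apart.

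Replication calls numbered 16 without the third and 20 without the first *Trp53*+/- library, 18 without the third *Trp53*-/- library, 16 with the ribosomal share as a covariate and 2 with library totals alone. Mitosis calls numbered from 26 to 36 without any 1 library, 29 with the ribosomal share and 11 with library totals alone. Without any 1 library or with the ribosomal share the list medians ran from 0.68 to 0.91 over licensing and firing genes, from 0.54 to 0.81 over fork factors and from 0.82 to 1.05 over mitosis genes. With library totals alone they were 0.45, 0.32 and 0.62.

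Their promoters were searched for known cell cycle elements. The CHR (cell cycle genes homology region, TTTGAA, either strand), where MuvB complexes bind, was present in the 300-base windows of 1530 of the 10689 genes (14.3%) and of 22 of the 31 mitosis genes with a window (71.0%). The replication lists held it in 17.3%. Genes called higher held it in 23.2% and genes called lower in 13.1%. The CCAAT box, searched on both strands, was held by 43.0% of all genes with a window. It was held by 25 of the 31 mitosis genes and 26 of the 52 replication genes with a window. For each motif share a gene counted if any of its windows held a match. Of the mitosis genes 19 held both elements (61.3%, beside 7.22% of all genes). One stretch is given for each of 3 mitosis genes of low p with a CHR before the start site, with that element in capitals, 5′ to 3′.
Kif11, chr19:37376322-37376381, plus strand: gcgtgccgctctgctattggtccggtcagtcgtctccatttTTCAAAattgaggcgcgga
Top2a, chr11:99024190-99024249, minus strand: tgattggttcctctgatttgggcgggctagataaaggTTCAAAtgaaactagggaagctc
Ect2, chr3:27153960-27154019, minus strand: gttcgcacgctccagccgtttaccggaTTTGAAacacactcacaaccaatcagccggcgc

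E2F elements were searched in the same windows. The letters TTTCGCGC, TTTGGCGC, TTTCCCGC or TTTGCCGC, on either strand, stood in the windows of 4.71% of all genes, 12.7% of those called higher and 2.85% of those called lower. They were in 17 of 52 replication genes with a window (32.7%) and in 1 of the 31 mitosis genes. The stretches show such elements in capitals for *Cdc6* and 2 subunits of the replicative helicase and for the catalytic subunit of polymerase alpha. In *Mcm5* a pair of matches overlap.
Cdc6, chr11:98907987-98908046, plus strand: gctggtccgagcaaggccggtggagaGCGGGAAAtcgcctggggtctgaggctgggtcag
Mcm5, chr8:75109334-75109393, plus strand: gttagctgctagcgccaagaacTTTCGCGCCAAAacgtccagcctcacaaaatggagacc
Mcm6, chr1:128359719-128359778, minus strand: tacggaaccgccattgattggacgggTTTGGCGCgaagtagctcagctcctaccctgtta
Pola1, chrX:93632260-93632319, minus strand: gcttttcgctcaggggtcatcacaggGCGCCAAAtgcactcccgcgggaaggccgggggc
These shares are descriptions, and genes without a match hold no such letters in these windows only.

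**Figure D3:**
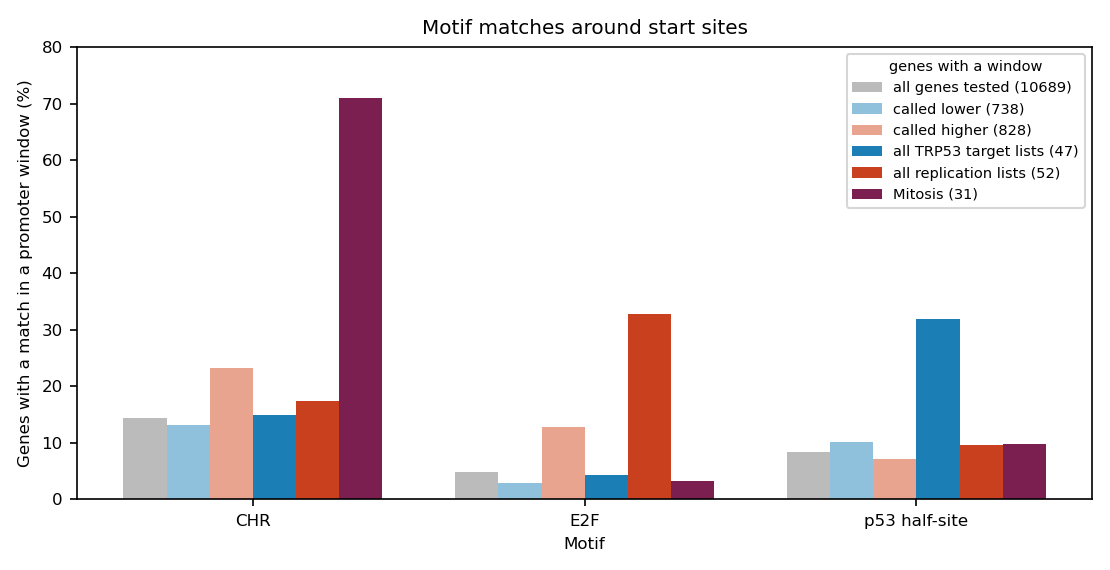
Percent of genes with at least 1 match to the CHR, E2F or p53 half-site motif in a 300-base promoter window (bars from 0; the CCAAT box is not drawn), for all genes tested, genes called lower or higher, and 3 groups of lists; the legend gives the genes with a window. The tallest bar of each motif is the CHR in mitosis genes (71.0%), E2F in replication genes (32.7%) and the p53 half-site in TRP53 targets (31.9%).

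The catalytic subunit of polymerase epsilon, *Pole* (chromosome 5, 110286306 to 110337474, plus strand), stood at 34.9, 36 and 28.6 CPM in *Trp53*+/- and at 60.2, 60.3 and 73.0 CPM in *Trp53*-/- libraries. On the log2 scale it rose by 0.96 (SE 0.19, adjusted p = 0.00564). *Pole2*, the B subunit, rose from 6.49, 7.62 and 4.95 CPM to 12.02, 10.3 and 11.3 CPM (0.82, SE 0.23, adjusted p = 0.0281). *Pole3*, the histone-fold partner of POLE4, rose from 23.9, 31.1 and 24.2 CPM to 34.6, 35.2 and 42.1 CPM (0.50, SE 0.15, adjusted p = 0.0449). For none of the 3 did libraries overlap between groups, beside 37.7% of all genes in either direction and 19.3% in this one, but of these only *Pole* was called with the ribosomal share as a covariate (adjusted p = 0.0276, against 0.139 and 0.207). *Pole4* and *Chrac1* were the members of this list not called, the latter named after its values were seen. Only 1 member was called without the first or the third *Trp53*+/- or the first or the third *Trp53*-/- library. The count was 2 without the second *Trp53*-/- library and 0 with library totals alone.

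Of 29 licensing and firing genes 24 were higher (82.8%, beside 6.58% of all genes) and none was lower (median 0.78). The count was 5 without the third *Trp53*+/- library, 7 without the first *Trp53*+/- or the third *Trp53*-/- library, 5 with the ribosomal share as a covariate and 0 with library totals alone, at medians of 0.70, 0.72, 0.70, 0.68 and 0.45. *Cdc6*, the loader of the MCM helicase, stood at 10.8, 13.2 and 9.77 CPM against 24.3, 20.6 and 28.6 CPM (1.12, SE 0.26, adjusted p = 0.0109). *Cdc7* and *Dbf4*, the kinase and its activator that fire origins, rose by 0.90 (SE 0.15, adjusted p = 0.00213) and 0.89 (SE 0.17, adjusted p = 0.00346). *Cdc45*, a helicase cofactor, rose by 0.88 (SE 0.20, adjusted p = 0.0103), *Mcm10*, which activates the helicase, by 1.05 (SE 0.22, adjusted p = 0.00697) and *Wdhd1* (AND-1), which couples it to polymerase alpha, by 0.88 (SE 0.17, adjusted p = 0.00478). *Mcm2* rose by 0.61 (SE 0.19, adjusted p = 0.0436).

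Among fork factors 16 of 19 genes were higher (84.2%, beside 6.58% of all genes). The count was 6 without the third *Trp53*+/- or the third *Trp53*-/- library, 7 without the first *Trp53*+/- library, 6 with the ribosomal share as a covariate and 1 with library totals alone, at medians of 0.57, 0.61, 0.57, 0.54 and 0.32 against 0.64. *Pola1* rose from 33, 34.2 and 27.2 CPM to 61.3, 50.7 and 63.9 CPM (0.90, SE 0.15, adjusted p = 0.0016). *Prim1*, the primase, rose by 1.05 (SE 0.17, adjusted p = 0.00171), *Rfc1*, of the clamp loader, by 0.48 (SE 0.08, adjusted p = 0.00197) and *Pcna*, the sliding clamp, by 0.72 (SE 0.21, adjusted p = 0.035). The lowered member was *Pold4*, the small subunit of polymerase delta that is degraded upon damage, at 9.26, 9.21 and 9.69 CPM against 3.90, 5.55 and 4.04 CPM (-1.06, SE 0.19, adjusted p = 0.00333).

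Nucleotide supply genes were higher in 7 of 11 cases (63.6%, beside 6.58% of all genes), in 4 without the third *Trp53*+/- or the third *Trp53*-/- library, in 4 with the ribosomal share as a covariate and in 1 with library totals alone. *Tk1*, thymidine kinase, rose by 1.07 (SE 0.21, adjusted p = 0.00474), *Tyms*, thymidylate synthase, by 0.79 (SE 0.15, adjusted p = 0.00348) and *Dck*, deoxycytidine kinase, by 0.83 (SE 0.14, adjusted p = 0.00226). *Rrm2*, the regulated subunit of ribonucleotide reductase, had a log2 fold change of 1.05 but a wide SE of 0.35 and was not called (adjusted p = 0.0647), with 142, 135 and 200 CPM in the *Trp53*-/- libraries.

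**Figure D4:**
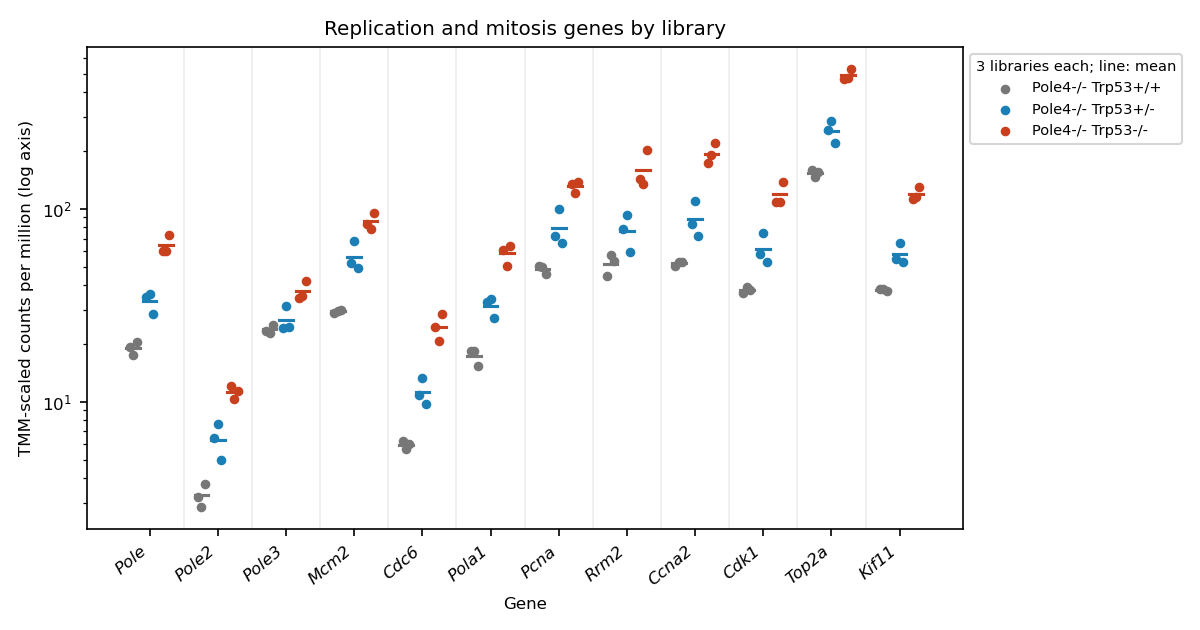
Levels of 12 replication and mitosis genes in each *Pole4*-/- library (points, TMM-scaled CPM on a log axis) by *Trp53* genotype, with lines at the means of 3 libraries. The *Trp53*+/- mean lies between the means of the other genotypes for each gene, and the second of the 3 is mostly the highest of them.

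Of the mitosis genes, *Cdk1*, the mitotic kinase, stood at 58.5, 74.3 and 53.1 CPM in *Trp53*+/- and at 109, 109 and 138 CPM in *Trp53*-/- libraries (0.93, SE 0.20, adjusted p = 0.00697). Its cyclin *Ccnb1* rose by 1.03 (SE 0.19, adjusted p = 0.00322) and *Plk1*, polo-like kinase, by 0.92 (SE 0.21, adjusted p = 0.0114). Spindle checkpoint kinases had lower p: *Bub1b* rose from 41.1, 48.9 and 39.8 CPM to 75.3, 77.9 and 86.4 CPM (0.88, SE 0.12, adjusted p = 0.000611) and *Ttk* by 1.13 (SE 0.16, adjusted p = 0.000682). *Kif11*, the bipolar spindle kinesin, rose by 1.04 (SE 0.15, adjusted p = 0.000762) and *Top2a*, topoisomerase II, from 255, 284 and 220 CPM to 470, 472 and 529 CPM (0.96, SE 0.15, adjusted p = 0.00132).

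Genes of the checkpoint, recombination and the Fanconi anemia pathway followed, with 21 of 24 higher (87.5%, beside 6.58% of all genes) and none lower (median 0.79). The count was 13 without the third *Trp53*+/- library, 14 without the third *Trp53*-/- library, 15 with the ribosomal share as a covariate and 5 with library totals alone. *Brca1*, of homologous recombination, stood at 17.7, 20.5 and 19.6 CPM against 37.7, 38.5 and 39.1 CPM (1.00, SE 0.10, adjusted p = 3.16e-05). *Chek1*, the replication checkpoint kinase, rose by 0.94 (SE 0.18, adjusted p = 0.00348). *Fancb* and *Fanci* rose by 1.15 (SE 0.19, adjusted p = 0.00195) and 0.79 (SE 0.12, adjusted p = 0.00128), and *Timeless*, of the fork protection complex, by 0.80 (SE 0.13, adjusted p = 0.00133).

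The regulators of these genes changed unevenly. In the list of E2F, pocket and MuvB proteins 8 of 19 were higher (42.1%, beside 6.58% of all genes) and 1 was lower. Only 3 were higher without the first or the third *Trp53*+/- or the third *Trp53*-/- library, 4 with the ribosomal share as a covariate and 2 with library totals alone. *E2f1*, the classical activator, stood at 20.8, 22.7 and 20.6 CPM against 25.3, 23.7 and 25.1 CPM and was not called (0.21, SE 0.12, adjusted p = 0.263). The MuvB core genes *Lin9* (1.06, SE 0.19, adjusted p = 0.00313) and *Lin54* (0.95, SE 0.16, adjusted p = 0.00185) rose, as did *Mybl2*, which turns MuvB into an activator (1.23, SE 0.35, adjusted p = 0.0348), and the pocket protein *Rbl1* (0.70, SE 0.11, adjusted p = 0.0016). *Rb1*, the retinoblastoma protein, fell from 21.2, 20.6 and 22.1 CPM to 13.4, 12.7 and 12.7 CPM (-0.72, SE 0.13, adjusted p = 0.00248).

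Among G1 and S cyclins, kinases and inhibitors 5 of 17 were higher (29.4%, beside 6.58% of all genes) and 1 was lower. Without any 1 library 2 to 4 were higher, with 2 left without the first or the third *Trp53*+/- or the third *Trp53*-/- library, 2 with the ribosomal share as a covariate and 1 with library totals alone. *Ccna2*, cyclin A2, rose from 83.4, 110 and 72.2 CPM to 172, 189 and 218 CPM (1.13, SE 0.21, adjusted p = 0.00348). *Ccne2* rose by 0.89 (SE 0.25, adjusted p = 0.0301), *Skp2*, which targets p27 for destruction, by 0.80 (SE 0.14, adjusted p = 0.00239) and *Cdk2* by 0.44 (SE 0.12, adjusted p = 0.0282). *Ccne1* was not called (0.46, SE 0.23, adjusted p = 0.196), nor was *Cdkn2a*, the locus of ARF and p16 (0.33, SE 0.49, adjusted p = 0.704). *Ccnd2*, cyclin D2, fell from 1305, 1045 and 1032 CPM to 697, 793 and 571 CPM (-0.71, SE 0.13, adjusted p = 0.00372).

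Both allele steps are given side by side by list medians; they share the *Trp53*+/- libraries, so no relation between them is drawn. The median over TRP53 targets was -0.20 for *Trp53*+/- over *Trp53*+/+ and -0.83 for *Trp53*-/- over *Trp53*+/-. Over replication genes the medians were 0.63 and 0.74, and over mitosis genes 0.72 and 0.94. Over all genes they were -0.01 and 0.00.

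**Figure D5:**
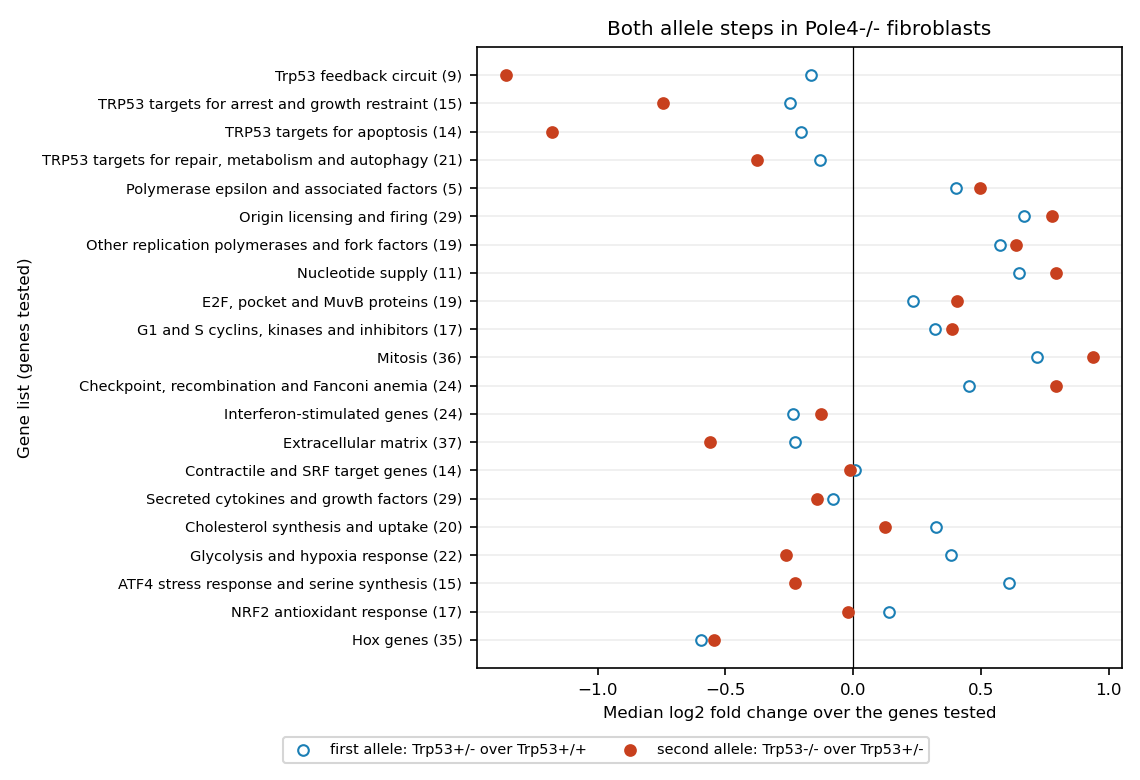
Median log2 fold change over the tested genes of each list for the first allele (open points, *Trp53*+/- over *Trp53*+/+) and the second allele (filled points, *Trp53*-/- over *Trp53*+/-), both in *Pole4*-/- MEFs and sharing the *Trp53*+/- libraries. For the 4 TRP53 lists the filled points lie to the left of the open ones, least so for repair, metabolism and autophagy (-0.38 against -0.13), while for replication and mitosis lists both lie to the right of zero.

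Extracellular matrix genes were lower in 16 of 37 cases (43.2%, beside 5.91% of all genes) and higher in none, with a median of -0.56. *Col1a1*, the main collagen of fibroblasts, stood at 8225, 6854 and 8820 CPM in *Trp53*+/- and 5140, 5163 and 3892 CPM in *Trp53*-/- libraries (-0.75, SE 0.18, adjusted p = 0.0154). *Fn1*, fibronectin, changed by -0.79 (SE 0.18, adjusted p = 0.00974), *Col5a1* by -0.87 (SE 0.15, adjusted p = 0.00197), *Sparc*, a collagen chaperone, by -0.63 (SE 0.12, adjusted p = 0.00374), *Loxl2*, which crosslinks collagen, by -0.67 (SE 0.13, adjusted p = 0.00374) and *Mmp2*, a gelatinase, by -0.88 (SE 0.17, adjusted p = 0.00437). *Eln*, elastin, varied too widely for a call (-1.39, SE 0.47, adjusted p = 0.0673). Without the first or the third *Trp53*+/- or the third *Trp53*-/- library 9, 8 and 7 matrix genes were called lower. With the ribosomal share as a covariate 7 were, and *Col1a1* was not among them (adjusted p = 0.0793).

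In the other lists few genes were called, and shares are to be read beside the 5.91% of all genes called lower and 6.58% called higher. Of 14 contractile and SRF target genes none was called. Of 24 interferon-stimulated genes 1 (4.17%) was lower, *Irgm1*, an immunity-related GTPase (-0.73, SE 0.16, adjusted p = 0.00853), and *Ifit1*, *Isg15* and *Irf7* lay at or below 1.496 CPM in all 6 libraries. No interferon-stimulated gene was called without the third *Trp53*-/- library. Beside 1 lower, 2 were higher with the *Xist* covariate and 1 with the replicate block. Of 29 secreted factors 3 (10.3%) were lower: *Lif*, a cytokine of the IL6 family (-1.42, SE 0.27, adjusted p = 0.00406), *Pdgfa* (-0.79, SE 0.15, adjusted p = 0.00406) and *Vegfa* (-0.58, SE 0.14, adjusted p = 0.0155). Of 15 ATF4 and serine synthesis genes 2 (13.3%) were lower, *Ddit4*, an inhibitor of mTORC1 (-1.48, SE 0.29, adjusted p = 0.00468), and *Ddit3* (CHOP; -0.97, SE 0.25, adjusted p = 0.0214), while *Atf4*, *Asns* and *Phgdh* were not called. The count in this list was 4 without the first *Trp53*-/- library and 1 with the ribosomal share as a covariate or without the first or the third *Trp53*+/-, the second or the third *Trp53*-/- library.

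Of 22 glycolysis and hypoxia genes 2 (9.09%) were lower, the glucose transporter *Slc2a1* (-0.38, SE 0.11, adjusted p = 0.0424) and *Gpi1* (-0.37, SE 0.09, adjusted p = 0.0127). None of the 22 was called without the second or the third *Trp53*-/- library, and 4 were without the first. NRF2 targets were called in both directions, with *Gclm* (0.56, SE 0.11, adjusted p = 0.00548) and *Gsr* (0.61, SE 0.19, adjusted p = 0.0488) higher and *Hmox1* (-0.71, SE 0.20, adjusted p = 0.0283) and *Sqstm1* (-0.66, SE 0.12, adjusted p = 0.00333) lower among 17, 11.8% each way. Without any 1 library 1 of them was higher and 1 to 3 were lower, 3 without the first *Trp53*-/- library, and with the ribosomal share as a covariate 1 was called each way. In cholesterol synthesis 2 of 20 (10%) were higher, *Stard4* (0.47, SE 0.09, adjusted p = 0.00462) and *Idi1* (0.45, SE 0.14, adjusted p = 0.0413). That count was 1 without any 1 library except the second *Trp53*+/-, 2 with the ribosomal share as a covariate and 0 with library totals alone. Hox genes had a median of -0.55, but 3 of 35 (8.57%) were called, *Hoxb2* (-0.51, SE 0.14, adjusted p = 0.0248), *Hoxb3* (-0.82, SE 0.23, adjusted p = 0.0315) and *Hoxb4* (-0.66, SE 0.20, adjusted p = 0.0444), all lower. None was called without the first or the third *Trp53*+/- or the third *Trp53*-/- library, and 1 with the ribosomal share as a covariate.

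The most raised genes were mostly of low level. *Ulbp1*, a ligand of the NK cell receptor NKG2D, was the best supported, at 5.26, 5.14 and 4.99 CPM in *Trp53*+/- and 18.4, 21.2 and 25.8 CPM in *Trp53*-/- libraries (2.08, SE 0.18, adjusted p = 2.74e-06). *Lepr*, the leptin receptor, stood at 5.51, 8.23 and 5.50 CPM against 15.5, 35.2 and 28 CPM (2.04, SE 0.37, adjusted p = 0.00326). *Krt8*, a simple-epithelium keratin, stood at 0.180, 0.374 and 0.651 CPM against 2.90, 0.890 and 4.44 CPM (2.77, SE 0.73, adjusted p = 0.0223). These few reads spread widely among the *Trp53*-/- libraries, and *Krt8* was not called with the ribosomal share as a covariate (adjusted p = 0.0635).

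*Podxl*, a sialomucin, rose by 2.02 (SE 0.47, adjusted p = 0.0120), *Sp7*, the osteoblast factor osterix, by 2.42 (SE 0.72, adjusted p = 0.0386), *Ppl*, periplakin, by 2.32 (SE 0.55, adjusted p = 0.0136), *Myo5b*, a myosin motor, by 2.45 (SE 0.52, adjusted p = 0.00745), *Lrrn4* by 2.24 (SE 0.65, adjusted p = 0.0338) and *Gpm6a* by 2.18 (SE 0.68, adjusted p = 0.0469). *Gm10012* (4.16, SE 1.12, adjusted p = 0.0268) is a processed pseudogene, whose reads could be shared with its parent gene.

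Markers of other cell types were checked beside these results. Summed macrophage markers ranged from 9.05 to 23.8 CPM in *Trp53*+/- and from 6.39 to 29.03 CPM in *Trp53*-/- libraries, with none of 8 called. Summed skeletal muscle markers were higher in *Trp53*+/- libraries, at 132 to 207 CPM against 68.6 to 86.5 CPM, with *Acta1* (-1.51, adjusted p = 0.00292) and *Des* (-1.41, adjusted p = 0.0123) lower and the myogenic factor *Myod1* at or below 0.953 CPM throughout. That sum is carried by these abundant members: the median over the 10 tested muscle markers was 1.05, and 4 low ones were higher in every *Trp53*-/- library without being called, beside 19.3% of all genes that were higher without overlap. In the fit of only the libraries compared 3 muscle markers were called higher. Neural and glial markers (256 to 300 against 292 to 318 CPM), endothelial (2.95 to 4.46 against 3.77 to 6.17 CPM) and cartilage markers (173 to 408 against 139 to 370 CPM) had no called member with the settings of the other values given here. Neural and glial markers had 2 called higher in the fit of only the libraries compared and 1 with DESeq2, with the replicate block or without the second *Trp53*-/- library. Epithelial markers summed to 3.92 to 6.94 against 4.40 to 20.6 CPM and adipocyte markers to 8.00 to 10.8 against 14.1 to 19.03 CPM. In the adipocyte list *Fabp4* was lower (-1.25, adjusted p = 0.0278) and *Lpl* higher (1.52, adjusted p = 0.0027), with *Adipoq* at most at 0.0468 CPM. The 4 globin genes had no reads. The part of such cells in the results was not tested.

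The same step in *Pole4*+/+ cells, *Trp53*-/- against *Trp53*+/-, was fitted for comparison. Its 3 *Trp53*+/- libraries are all male and its 3 *Trp53*-/- libraries all female, so sex and genotype cannot be told apart there. The first *Pole4*+/+ *Trp53*-/- library stood apart from the others, with *Pole4* at 14.2 CPM against 25.4 and 26.4 CPM and 7.20 CPM of Y-linked genes against at most 0.0776 CPM in the other 2. Whether this library holds RNA of more than 1 culture was not tested, and every *Pole4*+/+ value below that includes it carries this doubt. With it, 80 genes were lower (0.509% of those tested) and 11 higher (0.07%). Without it, 699 genes were lower (4.38% of the 15953 tested in that fit) and 802 higher (5.03%).

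Of the 80 genes lower in *Pole4*+/+ cells, 74 were also lower in *Pole4*-/- cells, which is 92.5% of the first list and 7.97% of the 929. Of the 11 raised there, 7 were also raised in *Pole4*-/- cells, 63.6% of 11 and 0.677% of 1034. Without the first *Pole4*+/+ *Trp53*-/- library 330 lowered genes were shared, 47.2% of 699 and 35.5% of 929, and 414 raised genes, 51.6% of 802 and 40.04% of 1034. No gene was called in opposite directions. *Cdkn1a* changed by -4.10 in *Pole4*+/+ against -5.28 in *Pole4*-/- cells, *Eda2r* by -5.55 against -6.44, *Mdm2* by -1.06 against -1.36 and *Zmat3* by -1.83 against -1.97. *Pole* changed by 0.45 (adjusted p = 0.495) against 0.96, and *Ccna2* by 0.51 (adjusted p = 0.457) against 1.13. Without the first *Pole4*+/+ *Trp53*-/- library *Pole* changed by 0.65 (adjusted p = 0.0178), *Ccna2* by 0.73 (adjusted p = 0.0135), *Cdkn1a* by -4.25 and *Eda2r* by -6.40. Licensing and firing genes called higher in *Pole4*+/+ cells then numbered 21 of 29 and mitosis genes 35 of 36, beside 5.03% of all genes in that fit, and 0 in both lists with that library.

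When the difference of the steps between the *Pole4* backgrounds was itself tested with edgeR, 0 genes were called (0%), 1009 had an unadjusted p under 0.05, and DESeq2 called 18. The 5 genes with the lowest p were *Net1* (difference 0.85, SE 0.14, adjusted p = 0.193), *Ebf2* (-2.07, SE 0.35, adjusted p = 0.193), *Ide* (1.13, SE 0.20, adjusted p = 0.213), *Vat1l* (1.87, SE 0.39, adjusted p = 0.346) and *Lpin3* (-1.19, SE 0.25, adjusted p = 0.346). For *Cdkn1a* the difference was -1.18 (SE 0.31, adjusted p = 0.631) and for *Pole* 0.51 (SE 0.27, adjusted p = 0.778). These data do not show that losing the second allele acted differently with and without *Pole4*, nor that it acted alike.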

How the data were processed

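Paired-end libraries (Ovation kits, Illumina HiSeq) were trimmed with Trim Galore, aligned to GRCm38 with STAR 2.5.2 and counted per gene with RSEM 1.3.0, per the submitters' processing notes and the methods. The deposited values used here are the authors' RSEM expected counts, 51912 genes in 18 libraries with no normalization; 6.14% are not whole, and they were rounded. The label and the methods name different RNA extraction reagents. Whether counting used strand is not given in the sources used here, so antisense and overlapping genes are uncertain. Gene positions are from GENCODE M21 (GRCm38), which matched 51719 identifiers.

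The fit used edgeR 4.0.16 (R 4.3.3) with filterByExpr, TMM, a mean for each of the 6 genotypes from the 18 libraries together (residual degrees of freedom 12) and robust quasi-likelihood tests with Benjamini-Hochberg adjustment over the 15710 genes. The SE is the size of the log2 fold change divided by the square root of F. The code was tested on simulated data. Contrasts were *Trp53*-/- against *Trp53*+/- in each *Pole4* background, their difference, and *Trp53*+/- against the log2 midpoint of *Trp53*+/+ and *Trp53*-/-. Cultures were made from individual embryos, by the methods. Pairs of libraries of a group differed by far more than sampling noise (chi-square per degree of freedom of at least 21.6), so none was counted as a repeat. Ribosomal RNA genes were not left out of this check. It cannot tell whether libraries came from the same embryo.

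The members and gene lists were chosen with earlier results of these data known. Named genes are 15 fixed ones, including *Trp53*, the polymerase epsilon subunits, *Cdkn1a* and E2F and cyclin genes; the 10 called genes with the lowest and the 10 with the highest log2 fold change among those with groups that do not overlap and a mean of at least 1 CPM in the higher group; the 10 with the lowest p; for each list its first 3 genes, up to 4 called genes of lowest p and those called against the majority; and the 5 lowest p of the other contrasts. Promoters shown are some of those of list genes of low p that hold the motif before the start site. For the p53 half-site *Polk*, of lower p than *Mdm2* and *Bax*, also held a match and is not shown. Promoter windows and motifs were read from RefSeq (GRCm38.p6); stretches overlap no annotated exon. Alternatives were DESeq2 1.42.0, other scalings and filters, fewer libraries, a replicate block, *Xist* or the ribosomal share as covariate (the latter chosen after seeing the data), no ribosomal genes and stricter thresholds. Some genes of the lists are not reported here by name.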

Additional observations from a re-analysis of the deposited data

How the results depend on the processing

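Counts of called genes changed with the libraries fitted, the scaling and the tool. Without any 1 library, the main comparison gave 654 to 1803 calls, the *Pole4*+/+ comparison 56 to 1501, the difference of the steps 0 to 0, the midpoint test 18 to 29, TRP53 targets 29 to 32, replication genes 16 to 53 and mitosis genes 26 to 36. The *Pole4*+/+ count was 1501 without the first *Trp53*-/- library and 56, 57 or 58 without a *Trp53*+/- library. With library totals alone the counts were 1252 (main), 32 (*Pole4*+/+), 111 (midpoint), 2 (replication) and 11 (mitosis); with the ribosomal share as a covariate 861 (main) and 16 (replication); at an adjusted p under 0.01, 664 (main), 44 (*Pole4*+/+) and 17 (replication); and for changes of 1 or more on the log2 scale 403 (main). DESeq2 called 208 genes in the *Pole4*+/+ comparison, 18 for the difference and 158 for the midpoint. Fits of only the libraries compared gave 18 (*Pole4*+/+) and 63 (midpoint), the *Xist* covariate 27 (*Pole4*+/+), and no filter on low counts 43 (midpoint). The cause of these changes was not tested.

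The replicate numbers pair the libraries by number alone: same-numbered libraries of the 2 groups had correlations of deviations of -0.26, -0.11 and 0.11, and not every library correlated best with its own number. With the replicate block 2245 genes were called in the main comparison, 108 in *Pole4*+/+ cells, 33 for the midpoint, 35 TRP53 targets, 54 replication and 36 mitosis genes. The block called 1 gene for the difference of the steps, *Ebf2* (-2.05, adjusted p = 0.0475). Of the 121 named genes called in the main comparison none changed sign under any alternative run; 74 stayed called with library totals alone, 87 with the ribosomal share, and 82 to 113 without any 1 library.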

Other observations

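Other gene groups were described after their values were seen, so they carry no test of a list. Craniofacial mesenchyme transcription factors were higher in *Trp53*-/- cells: 10 of 17 were called higher and none lower, beside 6.58% of all genes, with a median log2 fold change of 0.87. Their summed level was 93.6, 117 and 98.6 CPM in the *Trp53*+/- and 178, 213 and 174 CPM in the *Trp53*-/- libraries. *Dlx2*, a homeobox gene of the jaw, stood at 4.41, 5.14 and 2.75 CPM against 12.3, 12.8 and 13.2 CPM (1.64, SE 0.39, adjusted p = 0.0139), and *Lhx8*, of the palate and tooth, at 1.82, 1.73 and 2.21 CPM against 7.26, 5.24 and 8.75 CPM (1.88, SE 0.27, adjusted p = 0.000619). In *Pole4*+/+ cells the median over the same genes was 0.07. Heads were removed before culture; where this RNA comes from was not tested. From 6 (without the first or the third *Trp53*+/- library) to 10 of them were called without any 1 library, 8 with the ribosomal share as a covariate and 5 with library totals alone.

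Some mesothelial markers were also higher, with 5 of 10 called, beside 6.58% of all genes, and a median of 1.58. Their summed level was 31.6, 35.6 and 34.3 CPM in the *Trp53*+/- and 56.6, 34.5 and 73.1 CPM in the *Trp53*-/- libraries, so the sums overlapped. *Wt1*, a transcription factor of the mesothelium, stood at 0.615, 0.795 and 1.05 CPM against 3.13, 1.73 and 5.17 CPM (2.02, SE 0.62, adjusted p = 0.0430), and *Upk1b*, a uroplakin, at 2.0, 0.795 and 1.45 CPM against 4.08, 2.67 and 6.56 CPM (1.62, SE 0.46, adjusted p = 0.0303). *Msln*, mesothelin, overlapped between the groups (0.32, adjusted p = 0.82). The second *Trp53*-/- library was the lowest of its group for *Wt1*, *Upk1b* and *Krt8*. Without 1 library from 0 to 4 of these genes were called, 0 with the ribosomal share as a covariate and 1 with library totals alone. None was called without the first or the second *Trp53*+/- or the third *Trp53*-/- library.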
